A study of Mus musculus with 40 samples.

Results

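The promoter of Lep, the gene of the hormone leptin, was examined in mouse liver by bisulfite amplicon sequencing. Its members were defined by position, as every CpG of the deposited tables on chromosome 6 from base 29009955 to 29010069 of the mouse build mm9 (NCBIM37). Earlier results of these data were known when they were chosen. The rule found 11 CpGs of 300 in the whole series, at 1 of 22 loci with more than 1 CpG, and all 11 passed the coverage filter that left 253 CpGs at 19 loci for testing. The livers came from male mice aged 9 weeks, of the strain C57BL/6 in the labels and C57BL/6J in the methods of the study. In the LL group both the dam and the offspring ate the low fat (LF) diet. In the HL group the dam ate the high fat (HF) diet and the offspring the LF diet after weaning on day 21. In the LH group the dam ate the LF diet and the offspring the HF diet, and in the HH group both ate the HF diet. The tables held values of 10 animals each in LL, LH and HH and of 9 in HL. HL replicate 1 was not analysed here.

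Leptin is released mainly by fat cells and tells the brain how much fat is stored, and mice without it eat to excess and become obese. Lep is best known as a gene of adipose tissue, and the mature liver is not a usual source of the hormone. Methylation is the addition of a methyl group to cytosine, in mammals mostly where a guanine follows (a CpG), and a promoter whose CpGs are methylated in most molecules is usually one that the cell does not use. Bisulfite converts unmethylated cytosine and leaves methylated cytosine as it is, so the level at a CpG is the percentage of reads in which the cytosine was retained. The DNA came from whole liver, so a level between the extremes in every cell cannot be told apart from a mixture of cells with different levels. The tables hold no expression values, and neither the level of Lep RNA nor the cell types of the tissue were checked.

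The amplicon lay just upstream of the gene. Lep (ENSMUSG00000059201.6) runs from chr6:29010220-29023877 on the plus strand in the GENCODE M1 annotation, and the amplicon covered chr6:29009930-29010112, from position -290 to -108 relative to the start. It overlapped 0 exons and 0 genes of the annotation. The sequence is shown because the levels below differ from one CpG to the next within it. Both sequences are the plus strand of the reference, 5′ to 3′. In the first, the capitals mark the 11 measured CpGs, and in the second, which runs on to the last base before the start and was not measured, they mark a GC box and a C/EBP match.
Lep amplicon: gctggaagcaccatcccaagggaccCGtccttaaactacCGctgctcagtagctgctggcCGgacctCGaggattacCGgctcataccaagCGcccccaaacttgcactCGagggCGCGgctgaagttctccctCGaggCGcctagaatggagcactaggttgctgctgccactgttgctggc
Lep amplicon end to start: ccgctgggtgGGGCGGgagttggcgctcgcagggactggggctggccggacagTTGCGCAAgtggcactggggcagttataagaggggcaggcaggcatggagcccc

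The CpGs are numbered here in the order of the sequence, from Lep_1 at 265 bp to Lep_11 at 151 bp upstream of the start. The reference holds 11 CpGs between the primers, and all 11 had values. Neither primer site, at the ends of the amplicon, holds a CpG. A further 6 CpGs between the end of the amplicon and the start were not measured. The 183 bp amplicon had a GC content of 61.2% and an observed over expected CpG ratio of 0.647. In windows of the same 116 bp at the same distance from the start of 22377 protein-coding genes, the median number of CpGs was 2, and 9.95% of the genes had as many CpGs as Lep or more.

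The letters around the CpGs differed. Lep_4, Lep_7 and Lep_10 each lie in CTCGAG, the site of the restriction enzyme XhoI. This motif was looked for after the levels had been seen, and 1.46% of the genes hold at least 1 copy in the same window on either strand, where Lep holds 3. Lep_3 and Lep_5 lie in CCGG, the site of HpaII and MspI, and 27.7% of the genes hold it. Lep_6, Lep_8 and Lep_11 lie in GCGC, the site of HhaI, of which 24.3% of the genes hold at least 1 copy.

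The measured window held no match, on either strand, to GGGCGG (the Sp1 GC box), TATAAA (the TATA box), CANNTG (the E-box) or TTNNGNAA (a C/EBP site). These were found in the same window of 13.0%, 5.84%, 39.4% and 21.3% of the genes. The stretch from the last measured CpG to the start held 1 GC box at 97 to 92 bp upstream and 1 C/EBP match at 54 to 47 bp upstream, each with 1 CpG inside it. C/EBP factors are known to drive Lep in fat cells. That stretch also held 2 E-box matches, at 57 to 52 and 49 to 44 bp upstream, and both overlap the C/EBP match. The exact string TATAAA was not found there. The printed stretch does hold TATAAG, which differs from it in the last letter, and variants of the TATA box were not looked for. In stretches of the same place and length, GGGCGG was found in 35.4% of the genes, the C/EBP motif in 20.8%, the E-box in 44.4% and TATAAA in 7.83%. A match is a description of the letters only, and none of these 4 motifs overlapped a measured CpG.

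Coverage of the Lep amplicon was deep. At Lep_1 the number of reads ranged from 11586 to 142476 with a median of 43442 over the 39 animals. The median was 75218 in LL, 48051 in HL, 30632 in LH and 40784 in HH. At the other 10 CpGs the totals were 2.00 to 2.01 times that of Lep_1, and at 9 of the 11 CpGs both the methylated and the total count were even in every animal. The same evenness in every animal was found at 145 of the 299 CpGs of the series with a value. Counts were therefore halved at those 10 CpGs wherever an interval needed a number of reads. The reason for the even counts was not tested, and a percentage is unaffected when both of its counts are doubled.

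Counting error was small beside the difference between animals. The variance between animals of a group was 169 to 627 times the counting variance over the 11 CpGs. PCR reads without molecular identifiers are not independent molecules, so counting intervals cover counting error only. Over the 39 animals, the widest 95% Wilson interval of any Lep CpG of an animal reached from 0.258 to 0.900 points to either side of its value.

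The Lep promoter was more methylated than not in liver. The mean over the 11 CpGs was 66.0% ± 3.51 (SD, 39 animals), with a lowest value of 58.7% in LL replicate 2, a median of 65.8% and a highest value of 73.0% in LH replicate 2. No animal was near 0 or 100%. By mean level Lep ranked 3 of 19 tested loci.

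The loci next to Lep in that order differed from it within animals. Nr1i2, the gene of the xenobiotic receptor PXR, was above Lep with a mean of 94.3%, and Lep was lower in all 38 animals with values at both loci, with a mean difference of -28.3 points. Plagl1, an imprinted gene that is normally methylated on a single parental copy, was below Lep with a mean of 51.1%. Lep was higher than Plagl1 in 38 of 38 animals, by 14.9 points on average, although the smallest gap was 0.135 points and the highest Plagl1 animal, at 59.6%, was above the lowest Lep animal. Both paired sign-flip permutation tests gave p = 1e-05, the smallest that 100000 resamples can give. The neighbours were picked by level from the same values, so these tests are a description. Among the 19 loci Lep had the widest range of CpG means, 30.4 points from the lowest to the highest of its CpGs, followed by 24.8 points at Lepr. Its SD between animals of a group, 3.39 points, was the fifth largest.

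**Figure D1:**
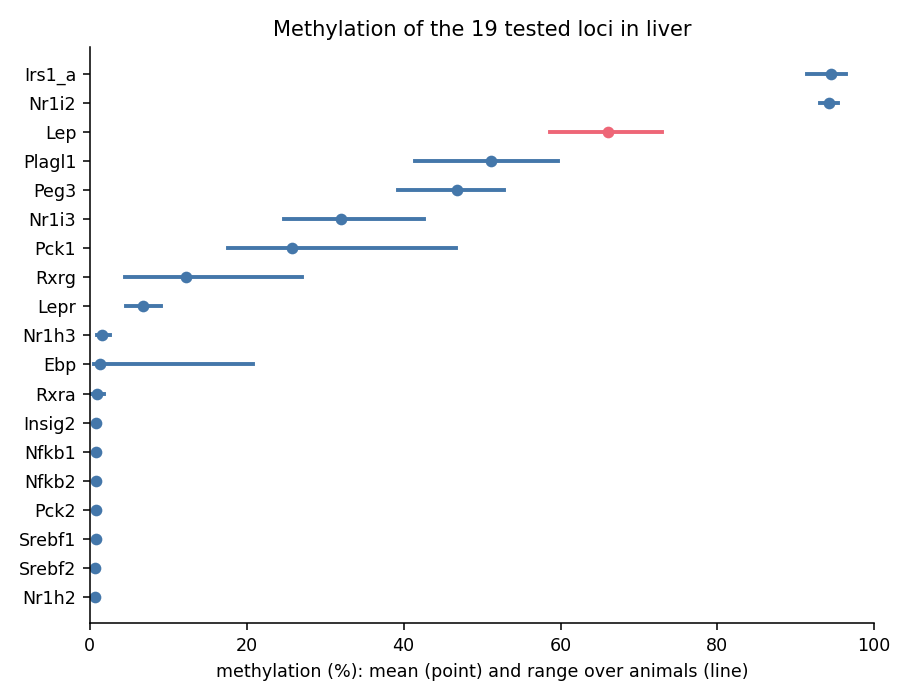
Methylation (%) of the 19 tested loci, 1 per row. Points are means over animals and lines run from the lowest to the highest animal. Lep, in red, has its mean at 66.0%, and its range does not reach that of Nr1i2 but overlaps that of Plagl1 (highest animal 59.6%).

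Within the amplicon the means of the 11 CpGs formed a profile of peaks and troughs. Lep_3, 230 bp upstream, was the highest at 83.7% ± 2.81 (SD, 39 animals), and it was the highest Lep CpG in 39 of 39 animals. It ran from 77.4% to 90.2%. Lep_10, 156 bp upstream, was the lowest at 53.2% ± 3.78, from 42.4% to 59.0%, and it was the lowest CpG in 31 of 39 animals. Only 7 bp separate Lep_3 from Lep_4, which had a mean of 60.0% ± 4.54.

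The other CpGs lay between these extremes. Lep_9 had a mean of 74.0% ± 4.90, Lep_8 of 73.2% ± 4.90 and Lep_6 of 71.4% ± 4.59. Lep_5 had a mean of 69.2% ± 4.34, Lep_11 of 62.5% ± 4.56 and Lep_1 of 61.1% ± 3.42. Lep_7 had a mean of 60.1% ± 5.04. Lep_2, 251 bp upstream, had a mean of 58.1% and the widest spread, with an SD of 6.45 points and values from 43.9% to 72.1%. The 3 CpGs in CTCGAG had means of 53.2% to 60.1%, which put them among the lower levels of the amplicon, whereas the 2 in CCGG had 83.7% and 69.2%.

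Neighbours in the order of level were often close. Of the 10 pairs of CpGs next to each other in level, 7 had means that differed in a paired sign-flip permutation test with Benjamini-Hochberg adjustment. Lep_3 was above Lep_9 in 39 of 39 animals, Lep_5 above Lep_11 in 35 and Lep_2 above Lep_10 in 33, whereas the other pairs kept their order in 20 to 26 of 39 animals. The 3 that did not were Lep_9 and Lep_8, which are 2 bp apart and differed by 0.847 points (adjusted p = 0.196), Lep_1 and Lep_7 (0.986 points, adjusted p = 0.196), and Lep_7 and Lep_4 (0.160 points, adjusted p = 0.806). The order came from the same values, so these tests are a description. Within a single animal the highest and the lowest Lep CpG were 26.0 to 37.7 points apart.

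**Figure D2:**
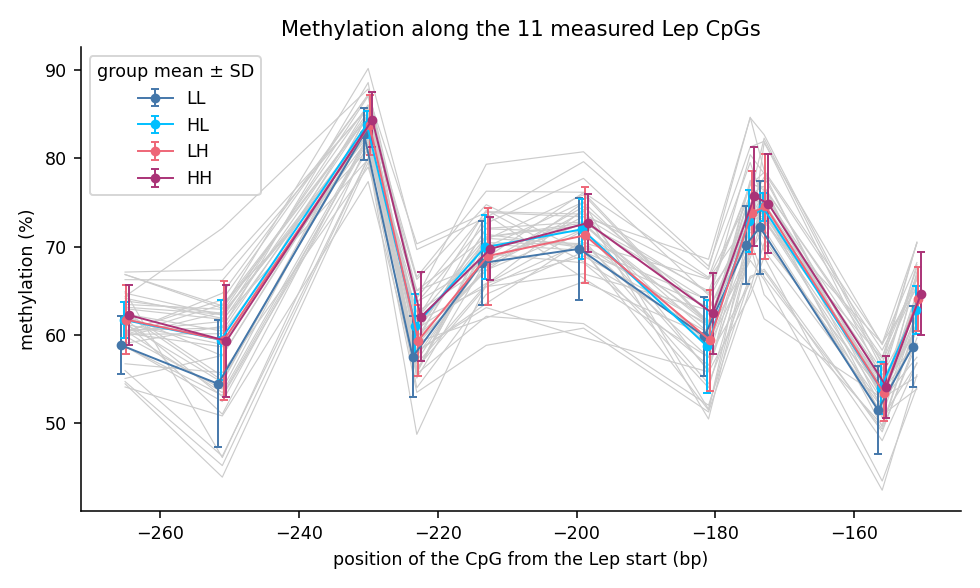
Methylation (%) at each of the 11 Lep CpGs against the position from the Lep start (bp). Grey lines are the 39 animals, and coloured points with bars are group means ± SD, shifted sideways by under 1 bp. The peak at 230 bp upstream and the trough at 156 bp upstream appear in every group.

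The mean over the Lep CpGs was lowest in LL and highest in HH, and the ranges of the 4 groups overlapped. In LL the values ran from 58.7% to 70.0% with a median of 65.4%, and the mean was 64.0% ± 3.71 (SD, 10 animals). In HL they ran from 64.1% to 69.9% with a median of 65.8%, and the mean was 66.4% ± 1.92 (SD, 9 animals). LL thus held the lowest animals and HL the narrowest spread. In LH the values ran from 59.6% to 73.0% with a median of 66.7% and a mean of 66.3% ± 3.89 (SD, 10 animals). In HH they ran from 61.7% to 72.7% with a median of 67.2% and a mean of 67.5% ± 3.55 (SD, 10 animals). The order of the means was LL, LH, HL and HH, and no neighbours in that order differed beyond their spread in the tests given below.

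**Figure D3:**
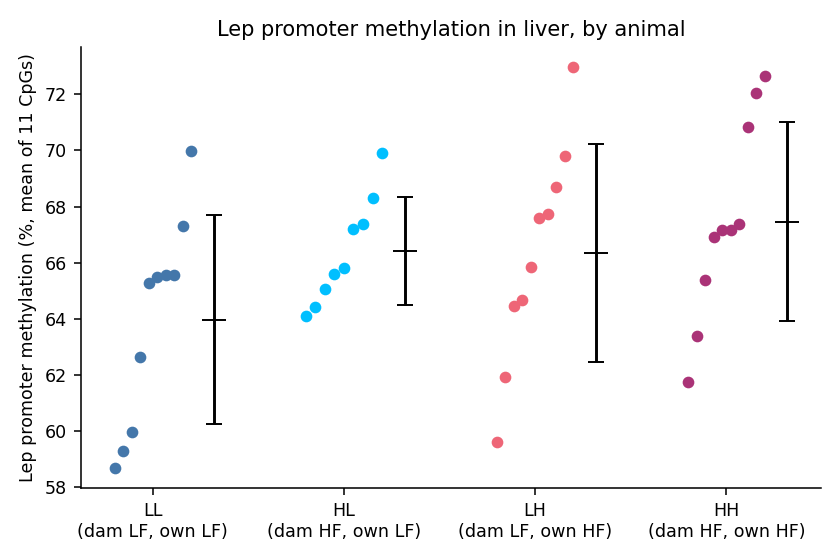
Mean methylation (%) over the 11 Lep CpGs in each animal, by diet group, with points spread sideways in order of value. Black bars are mean ± SD. The groups overlap, and the vertical axis starts at 58% and not at 0.

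The maternal diet was compared first in offspring that ate the LF diet. Averaged over the Lep CpGs, methylation was 2.45 points higher in HL than in LL (95% interval -0.465 to 5.35, exact permutation p = 0.0942, adjusted p = 0.447 over 19 loci), and 6 of 9 HL animals were above the LL median. Of the 11 Lep CpGs, 10 were higher in HL, with a median difference of 2.46 points. Over all 253 CpGs, 43.1% were higher in HL and the median difference was -0.04 points. At 2 Lep CpGs the unadjusted p was under 0.05, against 14.6% of all CpGs tested. At an adjusted p under 0.05 there was no Lep CpG, and the share of all CpGs was 0% and of all loci 0%.

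The Lep CpG with the smallest p in this comparison was Lep_11. Its values ran from 53.9% to 66.5% with a median of 57.8% in LL, and from 57.5% to 66.7% with a median of 62.9% in HL. Most HL animals lay in the upper part of the LL range, and 8 of 9 were above the LL median. The difference was 4.14 ± 1.73 points (SE), and the exact permutation test gave p = 0.0341 (adjusted p = 0.279). The second was Lep_1, at 2.87 ± 1.24 points (exact permutation p = 0.0374, adjusted p = 0.296). The largest difference, 4.99 ± 2.74 points, was at Lep_2 (exact permutation p = 0.0925, adjusted p = 0.520). Lep_2 ran from 43.9% to 64.0% with a median of 55.2% in LL and from 51.0% to 66.2% with a median of 60.4% in HL.

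The count of 2 CpGs rested on single animals. It was 4 without LL replicate 9 and 0 without LL replicate 2, 6 or 10 or HL replicate 2. It was 1 without LL replicate 1, 4 or 7 or HL replicate 3, 5, 6, 9 or 10. In a quasi-binomial model of the reads, in which deeply sequenced animals weigh more, the difference of the locus was 1.20 points and the count was 0.

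The maternal diet was then compared in offspring that ate the HF diet. The mean over the Lep CpGs was 1.13 points higher in HH than in LH (95% exact interval -2.37 to 4.64, Student's t-test p = 0.505, adjusted p = 0.737), with 7 of 10 HH animals above the LH median. At 10 of the 11 Lep CpGs the mean was higher in HH, with a median difference of 0.678 points, and over all CpGs this share was 53.8%. No Lep CpG had an unadjusted p under 0.05, against 2.77% of all CpGs, or an adjusted p under 0.05, against 0%.

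Lep_4 had the smallest p. It ran from 54.0% to 66.3% with a median of 59.0% in LH and from 55.9% to 70.3% with a median of 61.3% in HH, a difference of 2.69 ± 2.03 points (SE, p = 0.202, adjusted p = 0.859). The largest difference was at Lep_7, 3.02 ± 2.33 points (p = 0.211, adjusted p = 0.859). Lep_7 ran from 51.5% to 67.8% with a median of 60.5% in LH and from 54.5% to 68.6% with a median of 62.1% in HH, so the ranges largely coincided. In the quasi-binomial model the difference of the locus was 2.40 points, with an adjusted p of 0.509.

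The post-weaning diet was compared in offspring of LF dams. The mean over the Lep CpGs was 2.36 points higher in LH than in LL (95% exact interval -1.23 to 5.94, Student's t-test p = 0.182, adjusted p = 0.541), and 6 of 10 LH animals were above the LL median. The mean was higher in LH at 10 of the 11 Lep CpGs, with a median difference of 1.99 points, against 49.4% of all CpGs. Of the Lep CpGs, 1 had an unadjusted p under 0.05, against 7.91% of all CpGs, and none had an adjusted p under 0.05, against 0%.

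That CpG was Lep_11, which also had the largest difference. It ran from 59.6% to 70.4% with a median of 62.7% in LH, while its median in LL was 57.8%. All 10 LH animals were above the LL median, although the ranges overlapped. The difference was 5.36 ± 1.86 points (SE, unadjusted p = 0.00982, adjusted p = 0.525). The count of such CpGs was 2 without LL replicate 3 or 9 and 3 without LH replicate 10, and it was 0 in the quasi-binomial model, where the difference of the locus was 0.571 points. In the study, cage mates were split over the LF and HF diets at weaning. The labels give animal numbers but no cage, and when runs of neighbouring animal numbers were taken as a block, 10 animals remained and the difference of the locus was 1.27 points (exact permutation p = 0.840).

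In offspring of HF dams, the mean over the Lep CpGs was 1.04 points higher in HH than in HL (95% interval -1.77 to 3.85, exact permutation p = 0.443, adjusted p = 0.708), with 7 of 10 HH animals above the HL median. The mean was higher in HH at 9 of the 11 Lep CpGs, with a median difference of 0.553 points, against 68.8% of all CpGs. No Lep CpG had an unadjusted p under 0.05, against 12.6% of all CpGs, or an adjusted p under 0.05, against 0%. Lep_7 had both the smallest p and the largest difference. It ran from 50.5% to 66.5% with a median of 60.2% in HL, below the HH median of 62.1%, and the difference was 3.72 ± 2.28 points (SE, exact permutation p = 0.120, adjusted p = 0.559). In the quasi-binomial model the difference of the locus was 1.77 points.

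**Figure D4:**
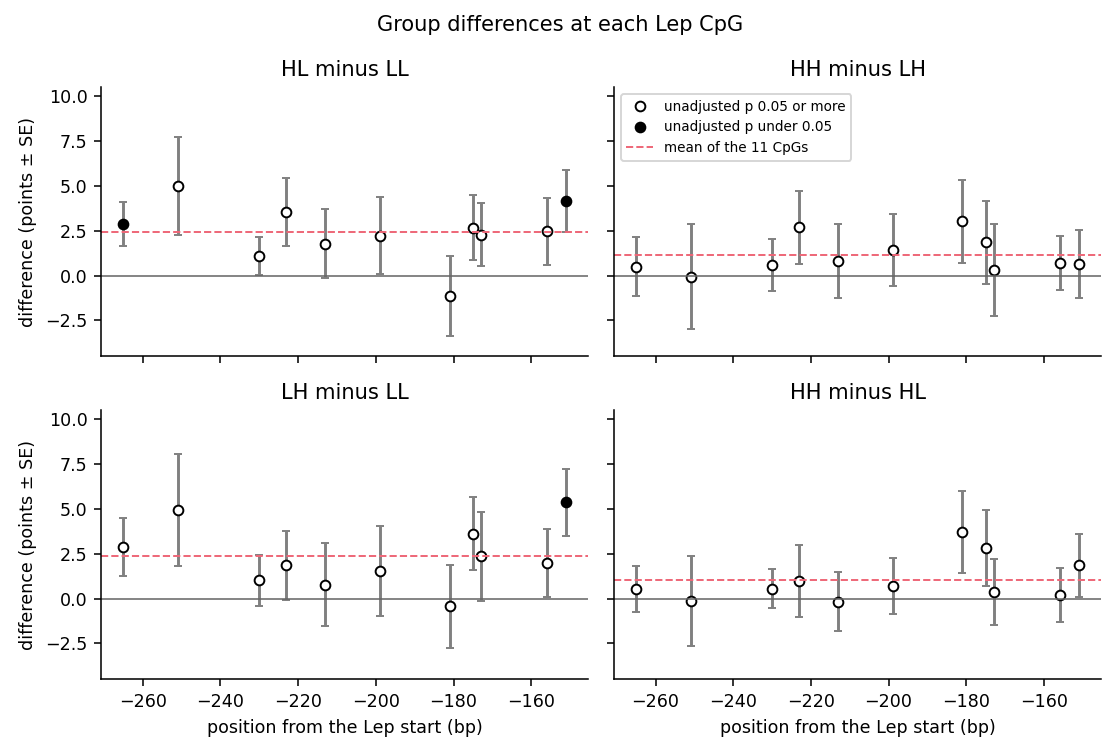
Difference in methylation (points ± SE) at each of the 11 Lep CpGs against the position from the Lep start (bp), in the 4 comparisons of the study. Filled points have an unadjusted p under 0.05, 2 in HL minus LL and 1 in LH minus LL, and the dashed red line is the difference of the mean over the 11 CpGs, which was above 0 in each panel.

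The comparisons share groups, so their directions are not independent of one another. The Lep CpGs also varied together from animal to animal, as given below, so a count of Lep CpGs is not a count of independent results. LL was the lower group in each comparison that held it. The group with both HF diets was compared with the group with neither, which the study did not do, to complete the order of the groups. As the mean over the Lep CpGs, methylation was 3.49 points higher in HH than in LL (95% exact interval 0.06 to 6.92, Student's t-test p = 0.0454, adjusted p = 0.432), and 8 of 10 HH animals were above the LL median. It sets the lowest group mean against the highest. The exact permutation test gave p = 0.0469, and the other alternatives were not run for HH against LL. All 11 Lep CpGs had a higher mean in HH, by 1.60 to 6.01 points, against 53.4% of all CpGs. At 4 of them the unadjusted p was under 0.05, against 7.91% of all CpGs, and at an adjusted p under 0.05 there was none, against 0%. They were Lep_11 (6.01 points, p = 0.0101), Lep_8 (5.49 points, p = 0.0259), Lep_1 (3.39 points, p = 0.0363) and Lep_4 (4.54 points, p = 0.0493).

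The groups with a single HF diet were also set side by side. Averaged over the Lep CpGs, methylation was 0.09 points higher in HL than in LH (95% interval -2.90 to 3.09, exact permutation p = 0.952). Of the 11 Lep CpGs, 6 were higher in HL, against 36.4% of all CpGs. The differences ran from -1.22 to 1.70 points, the last at Lep_4. No Lep CpG had an unadjusted p under 0.05, against 13.0% of all CpGs, and none had an adjusted p under 0.05, against 0.395%.

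Each diet was also tested over both levels of the other, by permutation of the labels within the other diet. With an HF dam the mean over the Lep CpGs was 66.9%, and with an LF dam it was 65.2%, a difference of 1.79 points (permutation p = 0.102, adjusted p = 0.387). With an HF diet after weaning it was 66.9% and with an LF diet 65.2%, a difference of 1.70 points (permutation p = 0.121, adjusted p = 0.328). All 11 Lep CpGs had a higher mean with HF in both, and the share over all CpGs was not counted for these terms. In the single comparisons, 43.1% and 53.8% of all CpGs were higher with an HF dam. With an HF diet after weaning these shares were 49.4% and 68.8%. For the maternal diet 1 Lep CpG, Lep_4, had an unadjusted p under 0.05 (3.12 points, permutation p = 0.0297, adjusted p = 0.342), against 12.6% of all CpGs, and none an adjusted p under 0.05, against 0%. For the post-weaning diet Lep_11 (3.62 points, permutation p = 0.0100, adjusted p = 0.282) and Lep_8 (3.22 points, permutation p = 0.0345, adjusted p = 0.399) did, against 10.7% of all CpGs, and none had an adjusted p under 0.05, against 1.19%.

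The interaction asks whether the maternal difference changed with the post-weaning diet. It was -1.31 points for the mean over the Lep CpGs (permutation p = 0.553, adjusted p = 0.812). The sign of this difference depended on the model. The maternal difference was 2.45 points with the LF and 1.13 points with the HF diet after weaning as means over animals, and 1.20 and 2.40 points in the quasi-binomial model, in which the interaction itself was not tested. The interaction was below 0 at all Lep CpGs except Lep_7, where it was 4.16 points (permutation p = 0.204). The share of all CpGs with an interaction below 0 was not counted. No Lep CpG had an unadjusted p under 0.05, against 6.72% of all CpGs, or an adjusted p under 0.05, against 0%.

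The 11 Lep CpGs varied together from animal to animal. After the group means had been removed, Pearson's r was above 0 in 55 of 55 pairs, from 0.306 to 0.757 with a median of 0.549, and Spearman's rho ran from 0.192 to 0.755. Permutation tests with Benjamini-Hochberg adjustment over the 55 pairs passed the threshold for r in 54 and for rho in 53. Lep_6 and Lep_11 did not pass for rho (r = 0.330, adjusted p = 0.0410, rho = 0.239, adjusted p = 0.147). Lep_6 and Lep_10 passed for neither (r = 0.306, rho = 0.192, adjusted p = 0.0599 and 0.243), and their r was 0.118 without the 2 animals farthest from the median. The first principal component held 61.2% of the variance over the 39 animals. An animal that was high at 1 Lep CpG was thus usually high at the others, and the CpGs are read from the same amplified molecules and library, which all of these pairs share.

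The largest r were between close neighbours. They were 0.757 for Lep_7 and Lep_8, 6 bp apart, and 0.739 for Lep_10 and Lep_11, 5 bp apart, with rho of 0.751 and 0.755 and permutation p = 1e-05 for each. The median r was 0.607 over the 10 pairs of adjacent CpGs and 0.513 over the other 45. Within single groups r was above 0 in all 55 pairs in LL, LH and HH, with medians of 0.556, 0.645 and 0.633. In HL, the group with the narrowest spread, r was above 0 in 46 of 55 pairs with a median of 0.240. The difference between HL and the other groups was not tested.

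**Figure D5:**
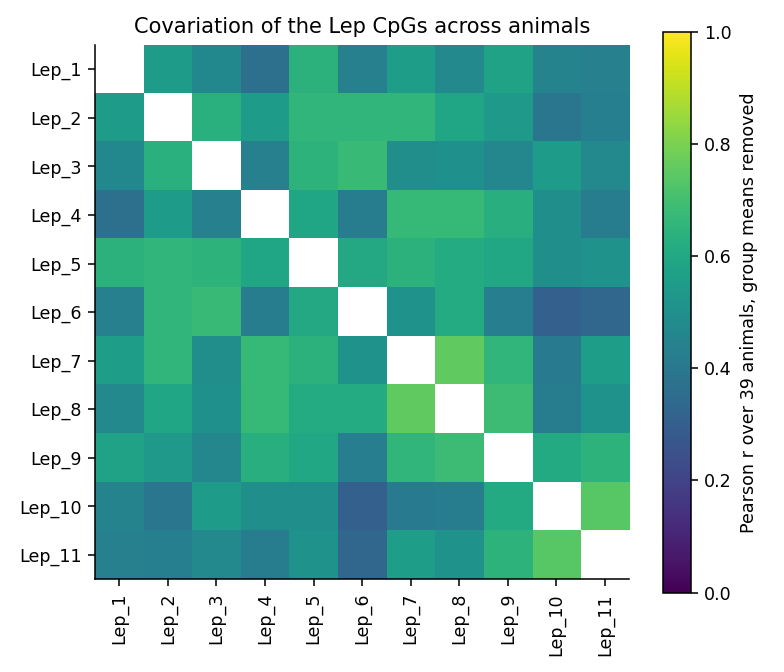
Pearson's r between each pair of the 11 Lep CpGs over 39 animals, with group means removed, on a colour scale from 0 to 1. All 55 pairs are above 0, from 0.306 to 0.757, and the diagonal is left blank.

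None of the 20 relations examined between the Lep level and another measure passed the adjusted threshold, again with group means removed. The largest r was with Nfkb2, a subunit gene of the inflammatory factor NF-kB (r = 0.350, permutation p = 0.0288, adjusted p = 0.280, rho = 0.226, p = 0.165), and it was 0.194 without the 2 animals farthest from the median. Pck2, the mitochondrial form of PEPCK (an enzyme of gluconeogenesis), had r = -0.331 (permutation p = 0.0400, adjusted p = 0.280, rho = -0.303, p = 0.0620), and -0.271 without 2 animals. Lepr, the gene of the leptin receptor, had r = -0.326 (permutation p = 0.0420, adjusted p = 0.280, rho = -0.283, p = 0.0805), and -0.240 without 2 animals. Within groups r with Nfkb2 was from -0.142 in HL to 0.740 in HH, and r with Lepr from -0.575 in HH to 0.526 in HL. The r with Pck2 was below 0 in each of the 4 groups, from -0.553 in HH to -0.04 in LL. The number of reads at Lep_1 on a log10 scale had r = 0.0313 (permutation p = 0.851, rho = 0.0496, p = 0.763). The mean of the loci with levels under 2%, without Ebp, had r = 0.0367 (permutation p = 0.824, rho = 0.170, p = 0.301). Ebp, with a mean of 1.30%, was left out of that mean although its level is under 2%. Its highest animal, HH replicate 1, had 20.8%. Ebp alone had r = 0.253 with Lep (permutation p = 0.139, adjusted p = 0.463), and 0.0859 without the 2 animals farthest from the median.

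Other genes of the leptin pathway with a locus in the series were Lepr, Irs1, an adaptor that passes on insulin and leptin signals, and the nuclear factors Pparg, Srebf1 and Rxra, which are known to act on fat cell genes. Lepr was far less methylated than Lep, with a mean of 6.71% ± 1.07 (SD, 39 animals). Of the 2 Irs1 loci, Irs1_a had 94.5% ± 1.21, and Irs1_b, with values in 35 animals and not tested, had 0.911%. Srebf1 had 0.736%, Rxra 0.881%, and Pparg, with values in 32 animals and not tested, 0.765%. By locus mean, Lep was thus the sole member of this list with an intermediate level. That level was not particular to Lep among the tested loci. Outside the list, Plagl1, Peg3, Nr1i3, Pck1 and Rxrg had means between those of Lep and Lepr, from 12.2% at Rxrg to 51.1% at Plagl1. The CpG means of Lepr spanned 24.8 points, so its low locus mean does not describe each of its CpGs.

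Of the 4 tested loci of this list, 0 passed the adjusted threshold in HL against LL, HH against LH or LH against LL, and 1 did in HH against HL. That was Lepr, 1.75 points higher in HH (exact permutation p = 0.000693, adjusted p = 0.0132 over 19 loci), the sole call among the loci in that comparison (5.26% of them). The call is of a locus mean, and its adjustment is within this comparison alone. The alternatives run for Lep, such as adjustment over the 4 comparisons together, were not examined for Lepr. In HH against HL, 0 of the 253 single CpGs passed the adjusted threshold, and 68.8% of all CpGs were higher in HH. The Lepr differences in the other comparisons were -0.457 points in HL against LL, 0.553 in HH against LH and 0.742 in LH against LL. Over the 4 comparisons the differences of Irs1_a ran from -0.232 to 0.310 points, those of Srebf1 from -0.02 to 0.03 and those of Rxra from -0.04 to 0.07.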

How the data were processed

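Bisulfite-treated liver DNA was amplified with locus-specific primers, barcoded and sequenced. Per the labels and the methods of the study, alignment to mm9 and calling were done by the authors in Bismark (version not given in the sources used here). For each CpG and animal they deposited the count of methylated reads, the total count and the methylated fraction, which at 429 Lep values equalled the ratio of the counts within 5e-16. Each nonzero total was at least 100 reads. Of the columns with values per animal, 0 were left unused.

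Percent methylation was computed as 100 times methylated over total reads. Following the filter of the study, a CpG was tested where 36 or more animals had 10 or more reads. CpGs within 1000 bp of each other formed a locus, and a locus mean needed 50% of its CpGs. Groups of 10 animals each were compared by Student's t-test, and any pair with HL by an exact permutation test, where p is double the smaller tail. Tests were 2-sided with Benjamini-Hochberg adjustment over the 253 CpGs or 19 loci. Terms, paired differences and correlations used 100000 resamples. Intervals of a difference invert the exact permutation test. The labels do not say that the animals of a group came from separate litters. Where the groups differ in maternal diet, litter mates within a group would make the p-values too small. For the post-weaning diet, the study split the males of a cage over both diets, and the main tests did not use that pairing.

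The members and lists were chosen with earlier results of these data known. Named are all Lep CpGs, per comparison those with the smallest p and the largest difference, the loci next to Lep in level, the 3 loci with the largest r, and a leptin pathway list. Lep_1, Lep_4 and Lep_8, where named for an unadjusted p under 0.05, were named after their values were seen. Alternatives were the Wilcoxon test, the exact test everywhere, a quasi-binomial model, limma on log2((methylated + 1)/(unmethylated + 1)), minima of 1 and 1000 reads, CpGs with a value in every animal, pooled reads, adjustment over 4 comparisons together, runs of animal numbers with steps of at most 3 as a block, F tests for the terms and leaving out each animal. Pooled reads with the doubled counts halved were added after the data had been seen. The tests were tried on the real values, shuffled between animals after group means had been removed, with a difference added at some CpGs in HL. That difference was larger than those seen at Lep, so the trial does not cover differences of the size reported here. Sequences came from NCBIM37 and genes from GENCODE M1. The software was R 4.3.3 with limma 3.58.1 and Python 3.11.15 with scipy 1.17.1, numpy 2.4.6, pandas 2.3.3, statsmodels 0.14.6 and matplotlib 3.10.9.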

Additional observations from a re-analysis of the deposited data

Results flagged for a closer look

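The Lep_1 level of HL replicate 5, 66.3%, stood apart from the other HL animals, the nearest of which had 62.4%. The gap was 0.535 of the range of the 9 animals. Of 52 sets of values examined (the Lep mean, its 11 CpGs and the reads at Lep_1 in each of 4 groups), this was the 1 that stood apart, where chance gives about 2.6.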

How the results depend on the processing

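In the 4 comparisons of the study, the difference of the mean over the Lep CpGs did not pass the adjusted threshold under any of the alternatives run, 42 values in all, or in the 78 fits that left out an animal. By construction 24 of the 42 repeat the same difference (other tests or adjustments, and filters that removed no Lep value). The other 18, and the 78, kept its direction. When an animal was left out, it ran from 1.86 to 3.12 points for HL against LL, from 0.386 to 1.87 for HH against LH, from 1.62 to 3.10 for LH against LL and from 0.468 to 1.68 for HH against HL. The number of Lep CpGs at an unadjusted p under 0.05 ran from 0 to 4 for HL against LL and from 1 to 3 for LH against LL, and was 0 in every such fit of the other comparisons. That number fell from 2 to 0 for HL against LL in the quasi-binomial model and in limma, and from 1 to 0 for LH against LL in the quasi-binomial model. The cause was not tested. No Lep CpG passed the adjusted threshold in any of these fits. The level of Lep was at most 66.3% under the alternatives, against 66.0%. With runs of animal numbers as a block, the difference for HH against HL was 1.37 points over 12 animals (exact permutation p = 0.50). No paired analysis was possible because the labels number no replicates across groups, other than the runs of animal numbers as a block given above. Variance between animals was 169 to 627 times the read-counting variance at the Lep CpGs, and noise from amplification or the number of input molecules was not measured.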
